A study of Mus musculus with 51 samples.

Results

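The sites described here carried the enhancer mark H3K4me1 at all 3 stages of an astroglial differentiation and H3K27ac, the mark of active enhancers and promoters, at none of them. They are the H3K4me1 peaks of astrogliogenic neural precursors (aNPC) on chromosomes 1 to 19 that overlapped, by 1 bp or more, an H3K4me1 peak in early astrocytes (eA) and one in late astrocytes (lA), and that overlapped no H3K27ac peak of aNPC, eA or lA. The rule found 33201 such persistently primed sites (the members in the plots) among 150527 aNPC H3K4me1 peaks, which is 22.1% of the list (95% Wilson interval 21.8–22.3). They were chosen by their overlaps in the 6 lists, so the presence of H3K4me1 and the absence of H3K27ac at them are not results.

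The cells were derived from C57/BL-6 mouse embryonic stem cells in culture. aNPC were kept in N2 medium with EGF and FGF-2 and stand for day 0, and eA and lA were the same cells after 1 and 5 days in DMEM with 1% FBS and LIF. Each mark was profiled by ChIP-seq in 2 biological replicates per stage, and the authors merged the replicates before they called peaks. One list per mark and stage was therefore available, no spread between replicates can be given, and the intervals below cover counting error over peaks only.

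H3K4me1 is laid down at enhancers before and during their use. An enhancer with H3K4me1 alone is usually called primed, and the addition of H3K27ac, written by the acetyltransferases p300 and CBP, marks it as active. Primed enhancers can be acetylated later, when the cell differentiates, and some belong to lineages the cell never enters. A further class, at CpG islands of developmental genes, carries the Polycomb mark H3K27me3 in stem cells and is called poised. H3K27me3 was not analysed here.

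The sequences under the summits, the points of highest H3K4me1 in aNPC, differed between sites in how many CpG dinucleotides they held. A few are shown to make that difference visible, each of 200 bases around the summit, on the + strand of mm9, with every CpG in capitals. Crh, which encodes corticotropin-releasing hormone, had the site of the highest −log10 q of all. T (brachyury) and Pax5, a B cell factor, had the strongest sites of the mesoderm and endoderm list and of the blood list. Nfib, an astroglial factor, and Hes1, a Notch effector of progenitors, had the strongest sites of the astrocyte and neural progenitor lists, and Rbfox3, the gene of the neuronal antigen NeuN, had that of the neuronal list.
Crh, chr3:19594226-19594425: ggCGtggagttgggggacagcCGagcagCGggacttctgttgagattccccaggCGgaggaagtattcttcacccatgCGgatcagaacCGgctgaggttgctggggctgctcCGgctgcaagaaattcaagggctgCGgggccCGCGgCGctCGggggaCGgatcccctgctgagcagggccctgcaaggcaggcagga
T, chr17:8626582-8626781: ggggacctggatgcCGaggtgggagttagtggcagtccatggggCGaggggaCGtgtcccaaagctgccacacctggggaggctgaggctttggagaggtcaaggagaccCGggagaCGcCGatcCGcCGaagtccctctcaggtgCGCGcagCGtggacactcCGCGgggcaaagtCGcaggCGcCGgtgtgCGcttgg
Pax5, chr4:44717027-44717226: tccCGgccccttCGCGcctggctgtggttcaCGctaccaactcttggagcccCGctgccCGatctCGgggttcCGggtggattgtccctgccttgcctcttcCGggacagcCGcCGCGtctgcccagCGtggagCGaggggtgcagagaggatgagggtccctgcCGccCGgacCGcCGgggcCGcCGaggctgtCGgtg
Nfib, chr4:82092905-82093104: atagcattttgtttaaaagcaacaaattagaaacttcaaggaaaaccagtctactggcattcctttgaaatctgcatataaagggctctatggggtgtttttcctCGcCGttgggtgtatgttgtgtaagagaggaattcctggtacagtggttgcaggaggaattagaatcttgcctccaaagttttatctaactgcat
Hes1, chr16:30096049-30096248: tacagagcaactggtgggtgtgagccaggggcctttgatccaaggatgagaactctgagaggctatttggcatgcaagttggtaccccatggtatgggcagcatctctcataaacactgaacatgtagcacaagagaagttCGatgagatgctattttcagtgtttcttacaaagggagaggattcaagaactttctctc
Rbfox3, chr11:118373539-118373738: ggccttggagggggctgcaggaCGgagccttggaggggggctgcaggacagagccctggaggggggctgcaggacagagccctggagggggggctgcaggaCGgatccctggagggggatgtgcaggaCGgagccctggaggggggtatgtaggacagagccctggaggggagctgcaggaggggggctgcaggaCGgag
The windows at Crh, T and Pax5 held 13, 17 and 21 CpG, whereas those at Nfib, Hes1 and Rbfox3 held 2, 1 and 4. The equally chosen windows at Slc26a4, Coro2a, Neurog2 and Hoxd1 held 26, 21, 26 and 26 CpG and are not printed because they overlap annotated UTRs. The window at Ppia held no CpG and is not shown either. Of the oligodendrocyte list, the strongest site, at Mbp, was left out when windows were chosen for display. The window of the next, at Olig1, held 3 CpG and is not shown. The Rbfox3 window is repetitive, with 52.4% of its 12-base words occurring more than once, against none in the other windows printed, and the part of the repeat in the height of its peak was not tested.

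A second pair of windows is shown for matches to transcription factor letters, which are in capitals.
Nrxn3, chr12:90387589-90387788: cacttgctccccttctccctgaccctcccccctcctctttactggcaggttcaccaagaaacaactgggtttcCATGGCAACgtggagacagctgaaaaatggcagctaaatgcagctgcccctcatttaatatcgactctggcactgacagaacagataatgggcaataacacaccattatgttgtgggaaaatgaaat
Esrrb, chr12:87705314-87705513: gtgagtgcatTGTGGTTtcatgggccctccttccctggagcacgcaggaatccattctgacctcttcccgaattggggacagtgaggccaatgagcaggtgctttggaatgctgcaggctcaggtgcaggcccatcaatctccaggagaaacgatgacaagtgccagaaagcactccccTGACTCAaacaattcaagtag
The Nrxn3 window, in an intron of a neurexin gene, held a match to the RFX letters at bases 74 to 82, counted from 1. The Esrrb window, in an intron of a pluripotency factor gene, held a RUNX match at bases 11 to 17 and an AP-1 match at bases 180 to 186. A match is a run of letters and not evidence of binding.

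Of the 150527 aNPC peaks, 125396 (83.3%) overlapped an H3K4me1 peak in eA and 110004 (73.1%) one in lA. H3K4me1 was present at both later stages at 103788 peaks. Of these, 70587 (68.0%) were acetylated at some stage and 33201 (32.0%) were the persistently primed sites. For comparison, 3 other sets of aNPC H3K4me1 peaks are used. The first is 30784 peaks kept at all stages and acetylated in all 3 stages (constitutively acetylated sites). The second is 22024 peaks kept at all stages and acetylated in eA or lA but not in aNPC (later acetylated sites). The third is 14754 peaks found in aNPC only and never acetylated (lost sites).

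The stage labels were described by H3K27ac peaks at the promoters, from 1000 bp before to 100 bp after a coding start site, of marker genes. Such a peak was found in aNPC at 14 of 19 astrocyte genes, which became 15 at day 1 and 14 at day 5, with Gfap and Slc1a3 among them at all 3 stages. All 10 housekeeping genes had one at every stage. Neural progenitor genes had 10, 10 and 9 of 12. Proneural factors had 3 of 10 at day 0 and 1 at each later stage, pluripotency genes 2, 2 and 1 of 11, and mesoderm and endoderm factors 1, 1 and 0 of 16. The number of astrocyte genes with such a peak thus hardly differed between stages, although single genes did. Gja1, the gap junction protein connexin 43, had it at days 1 and 5 but not day 0, and Aqp4, the water channel of astrocytes, at day 5 only, whereas S100b had it at day 0 only and Sparcl1 at days 0 and 1.

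The persistently primed sites were narrow and of moderate height. Their median width was 406 bp (quartiles 262 and 621), against 925 bp for constitutively acetylated, 549 bp for later acetylated and 226 bp for lost sites. Their median −log10 q in the aNPC list was 8.36 (quartiles 5.51 and 14.2, highest 108), against 25.1, 11.3 and 4.86 in the same order. Their median fold enrichment over local background was 4.0 (quartiles 3.27 and 5.19). H3K4me1 height belongs to the same peaks the rule was applied to, so these values describe the sites and support nothing.

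Across the strength of H3K4me1, the share of peaks that were persistently primed was not even. When the aNPC list was cut by −log10 q into 10 deciles, the share was 23.8% in the weakest decile, reached 29.4% in decile 5 and was 6.43% in the strongest. Among the peaks kept at all stages it went from 62.0% in the weakest decile to 6.53% in the strongest. Even so, 968 persistently primed sites belonged to the strongest decile of the list, and 133 had a −log10 q of 50 or more.

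Near the border of the rule, the sites on both sides were alike in size. There were 952 persistently primed sites with less than 50 bp between them and an H3K27ac peak, with a median width of 341 bp and a median −log10 q of 7.05. Another 1099 kept peaks overlapped H3K27ac by 1 to 50 bp, with medians of 333 bp and 7.33.

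How H3K4me1 persisted at these sites was described from the later lists. An eA peak covered a median of 93.5% of the aNPC peak and an lA peak 88.9%. At 30809 sites (92.8%) eA peaks covered 50% or more of the bases, and at 28933 (87.1%) lA peaks did. The summit of the strongest overlapping peak lay a median of 97 bp away in eA and 102 bp away in lA. It was within 100 bp at 51.1% of sites in eA and at 49.6% in lA. Few sites were split, since 4.55% met 2 or more peaks in eA and 4.17% in lA.

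Heights cannot be compared between lists of unknown depth, so each peak was placed by the percentile of its −log10 q within its own list. The median percentile of the primed sites was 41.9 at day 0, 55.1 at day 1 and 55.8 at day 5. Constitutively acetylated sites were at 82.5, 83.8 and 82.7, and later acetylated sites at 53.3, 74.2 and 76.6. The 3 lists held 154238, 185478 and 208333 peaks, and a peak that is found again ranks higher in a list with more weak peaks, so a difference in rank between stages is not read as a change in H3K4me1. The primed sites thus lay below both acetylated sets at each stage by their medians. Their ranges between quartiles overlapped those of the later acetylated sites at each stage, and those of the constitutively acetylated sites at day 1 (36.7 to 72.6 and 69.0 to 93.0) and day 5 (34.2 to 74.6 and 66.2 to 92.9). Only peaks that were found again enter these ranks, and the strongest of several overlapping peaks was taken. There were 1636 primed sites (4.93%) in the top 25% of all 3 lists and 687 (2.07%) in the bottom 25% of all 3.

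**Figure D1:**
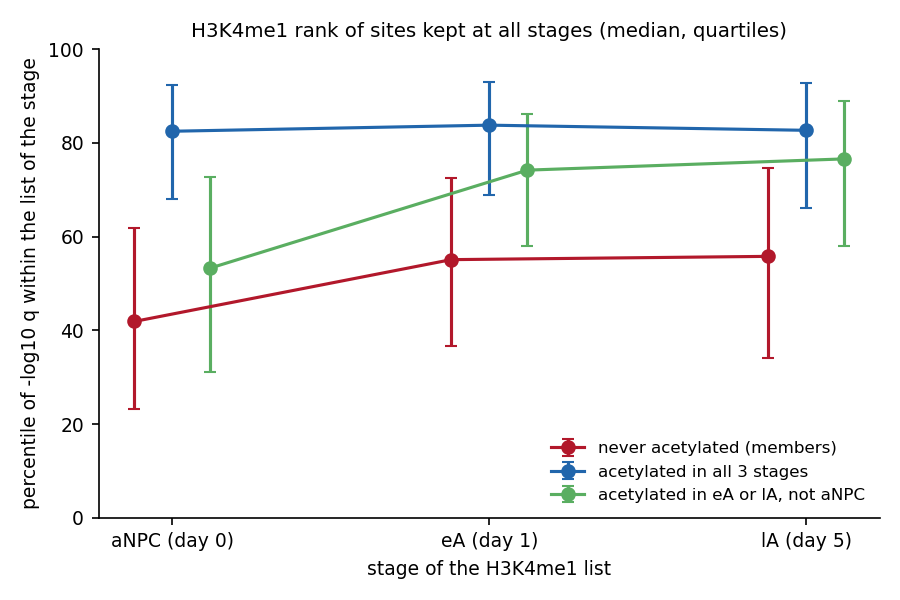
Median percentile (points, 0 to 100) of the −log10 q of H3K4me1 peaks within the list of each stage, with quartiles as bars, for 33201 persistently primed (never acetylated), 30784 constitutively acetylated and 22024 later acetylated sites. The primed sites have the lowest median at each stage, 41.9, 55.1 and 55.8.

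Absence of H3K27ac at a site did not mean distance from it. The median gap between a primed site and the nearest H3K27ac peak of any stage was 3925 bp (quartiles 604 and 12323). An H3K27ac peak lay within 1 kb of 10209 sites (30.7%, 30.3–31.2) and between 1 and 10 kb from 13293 (40%, 39.5–40.6). Between 10 and 50 kb there were 7863 sites (23.7%), and 1836 (5.53%, 5.29–5.78) were 50 kb or more from every H3K27ac peak. Lost sites had H3K27ac within 1 kb at 21.7% (21.0–22.4). Against the H3K27ac list of day 0 alone the median gap was 8148 bp, against that of day 1 it was 8167 bp, and against that of day 5 it was 6865 bp.

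The primed sites were placed much like the whole aNPC H3K4me1 list, with fewer at promoters. By the centre of the peak, 16131 (48.6%, 48.0–49.1) lay in introns, 14110 (42.5%, 42.0–43.0) between genes, 1635 (4.92%, 4.70–5.16) at promoters and 1325 (3.99%, 3.79–4.21) in exons. In the whole list, introns held 48.2% of the peaks, intergenic stretches 40.4%, promoters 7.52% (7.38–7.65) and exons 3.86%. Promoters held 15.9% (15.5–16.3) of constitutively acetylated, 5.43% (5.13–5.73) of later acetylated and 2.91% (2.66–3.20) of lost sites. The intervals of primed and later acetylated sites overlapped. These shares depend on the promoter window, and with 1 kb on both sides of the start site they were 7.90% (7.62–8.20) for primed, 27.9% (27.4–28.4) for constitutively acetylated, 9.35% (8.98–9.75) for later acetylated and 4.41% (4.09–4.75) for lost sites, and 12.7% for the whole list. In that window the intervals of primed and later acetylated sites did not overlap. The median distance to a coding start site was 26615 bp for primed sites, 25997 bp for the whole list, 13618 bp for constitutively acetylated, 27820 bp for later acetylated and 36036 bp for lost sites. Across the 19 chromosomes, the share of peaks that were persistently primed went only from 21.1% to 23.0%.

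CpG content divided the primed sites further, and the rule used no sequence. A site was called CpG-rich when the 500 bp around its summit had at least 50% G and C and an observed to expected CpG ratio of at least 0.6. This held for 1312 primed sites (3.95%, 3.75–4.17), close to the 3.76% of all aNPC H3K4me1 peaks. The share was 5.48% (5.23–5.74) for constitutively acetylated, 3.40% (3.17–3.64) for later acetylated and 1.29% (1.12–1.48) for lost sites.

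The CpG-rich primed sites differed from the other primed sites in strength and place. Their median −log10 q was 19.1, against 8.28 for the other 31889, and their median width 720 bp, against 398 bp. They stood at promoters in 35.9% of cases (33.3–38.5) and in exons in 28.7% (26.3–31.2), against 3.65% and 2.98%. Standing at promoters was shared by CpG-rich peaks in general, with 41.6% (40.3–42.9) of those in the whole list, 46.7% (44.3–49.1) of the constitutively acetylated and 41.0% (37.6–44.6) of the later acetylated ones there. In exons, these 3 had 20% (19–21.1), 13.1% (11.6–14.8) and 21.1% (18.3–24.2). Of the 1312, 942 (71.8%) lay less than 2 kb from a coding start site, of 848 genes, against 13.2% of the other primed sites. The nearest H3K27ac peak was a median of 13078 bp away, against 3753 bp. Their median percentile was 73.0 at day 0, 76.1 at day 1 and 74.2 at day 5, each within its own list.

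The share of CpG-rich sites was higher the farther the primed sites lay from acetylation. It was 2.00% (1.74–2.29) within 1 kb of H3K27ac, 2.80% (2.53–3.09) at 1 to 10 kb, 5.95% (5.45–6.5) at 10 to 50 kb and 14.6% (13.1–16.3) at 50 kb or more. The 4 intervals did not overlap. Among primed sites at promoters, 256 of 483 (53.0%, 48.5–57.4) were CpG-rich when the nearest H3K27ac peak was 10 kb or more away, against 111 of 780 (14.2%, 12–16.9) when it was within 1 kb. The median width of these promoter sites was 676 bp in the first group and 368 bp in the second.

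**Figure D2:**
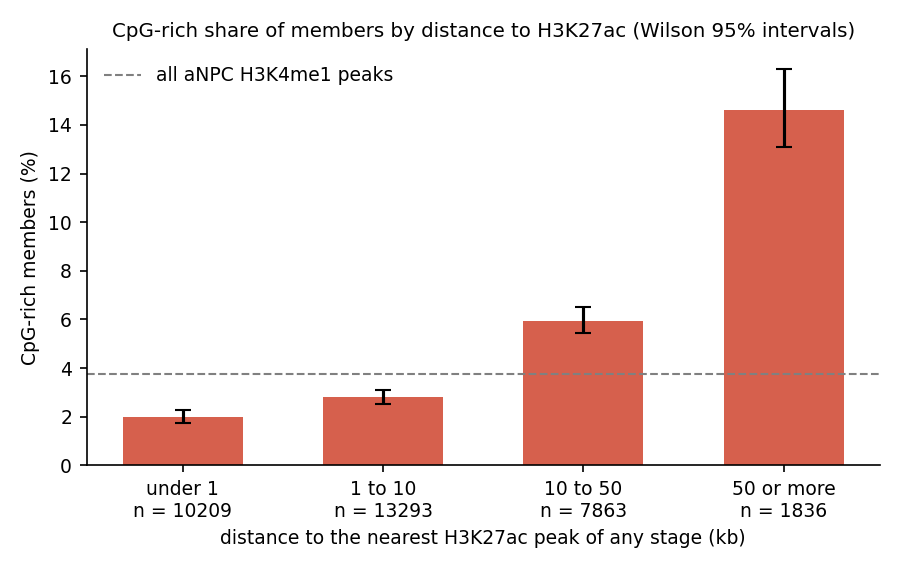
Share of persistently primed sites that were CpG-rich (percent, bars with 95% Wilson intervals) by distance to the nearest H3K27ac peak of any stage (kb), with the number of sites under each bar and the share of all aNPC H3K4me1 peaks as a dashed line. The bars rise from 2.00% to 14.6%.

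The same share depended on H3K4me1 strength, and in opposite ways in the primed and the constitutively acetylated sites. It was 0.947% (0.679–1.32) in the weakest decile of the aNPC list and 32.2% (29.4–35.2) in the strongest for primed sites. For constitutively acetylated sites it was 11.2% (7.62–16.1) in the weakest and 4.13% (3.75–4.55) in the strongest decile. Later acetylated sites also rose, from 0.309% (0.132–0.720) to 23.4% (21.3–25.6). With promoters left out, the strongest decile held 24.2% CpG-rich primed sites, 17.5% CpG-rich later acetylated sites and 3.10% CpG-rich constitutively acetylated sites. Of the 133 primed sites with a −log10 q of 50 or more, 75 (56.4%, 47.9–64.5) were CpG-rich.

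**Figure D3:**
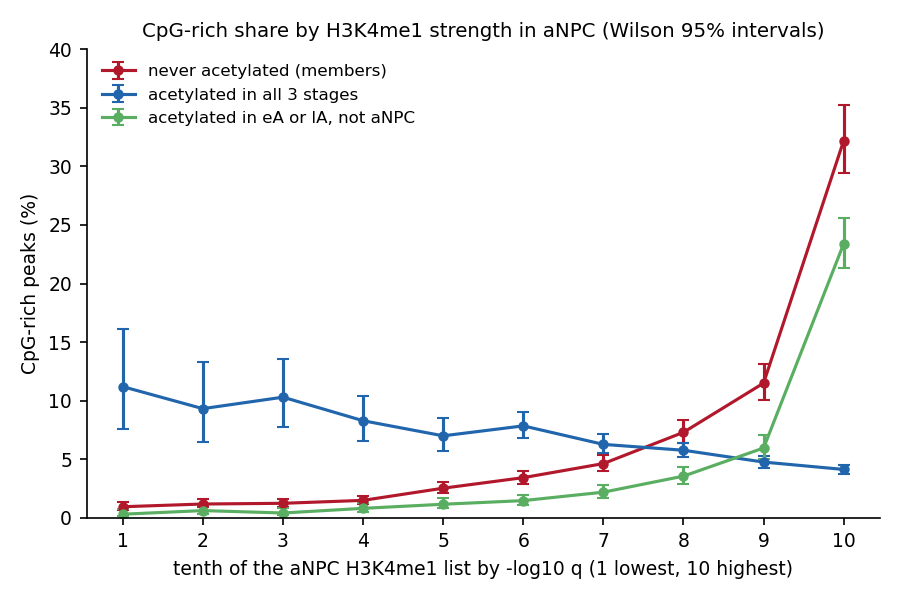
Share of CpG-rich peaks (percent, 95% Wilson intervals) in each decile of the aNPC H3K4me1 list by −log10 q, from 1 (weakest) to 10 (strongest), for primed, constitutively acetylated and later acetylated sites. In the strongest decile the shares are 32.2%, 4.13% and 23.4%.

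The 10 strongest primed sites illustrate these traits. After Crh (−log10 q 108, fold 15.8) came an exonic site in Slc26a4, the anion transporter pendrin (95.4), 560 bp from its start site. Sites at Coro2a (87.2) and Mtus2 (86.0) followed, at 623 and 224 bp from a start site. Next were Cacna1b, the N-type calcium channel (84.4), the Rbfox3 repeat (83.8) and Ptprn2, a secretory granule protein of neurons and endocrine cells (81.0). The last were Tc2n (79.5), Gm5607 (79.5) and 1700016K19Rik (74.8), and the site given to 1700016K19Rik was intergenic, 26841 bp from its start. The site in Cacna1b was 65 bp from an H3K27ac peak, and the other 9 were between 5451 bp and 48029 bp away. In eA and lA these sites ranked at percentile 98.9 or above, other than Coro2a, which was at 86.5 in lA.

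The 5 widest primed sites were in Inppl1 (2568 bp), at Neurog2 (2406 bp), in Slc6a11, the GABA transporter GAT-3 of astrocytes (2285 bp), in Chrnb4, a nicotinic receptor subunit (2185 bp), and near Wdr11 (2148 bp). The site in Inppl1 was 345 bp from H3K27ac, whereas that at Neurog2 was 59298 bp away.

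Peaks were given to the coding gene that holds their centre, or else to the nearest coding start site within 50 kb. This gave a gene to 25812 primed sites (77.7%), in 10196 genes, of which 4727 had 1 primed site and 1250 had 5 or more. Among all peaks given to a gene, 21.8% were persistently primed, and this is the base for the gene lists that follow. The share varied little with gene length, from 21.3% for genes of 10 to 50 kb to 22.7% for those of 200 kb or more. For genes without promoter H3K27ac at any stage it was 28.5% (27.9–29.0), and for genes with it at 3 stages 19.9% (19.6–20.2). That difference draws on the same H3K27ac lists as the rule.

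The shares of the gene lists are descriptions beside the base of 21.8%. Their intervals treat peaks as independent, which several peaks of 1 gene are not, so they are too narrow and no list is called different from the base. The highest share of persistently primed peaks was that of mesoderm and endoderm factors at 49.2% (31 of 63, 37.3–61.2). Proneural factors followed at 33.9% (19 of 56, 22.9–47.0), and neuronal structure and RNA-binding genes at 33.5% (64 of 191, 27.2–40.5). Pluripotency genes stood at 31.4% (16 of 51, 20.3–45.0), Hox genes at 30.6% (22 of 72, 21.1–42.0), synaptic receptor and adhesion genes at 25.7% (118 of 459, 21.9–29.9) and blood genes at 23.9% (16 of 67, 15.3–35.3). Housekeeping genes were at 20% (12 of 60, 11.8–31.8), oligodendrocyte genes at 19.1% (17 of 89, 12.3–28.5) and neural progenitor genes at 17.5% (29 of 166, 12.4–24). Astrocyte genes were lowest at 15.7% (58 of 369, 12.4–19.8). Counted by gene, over genes with 3 or more peaks, the median share was 50% in 10 genes of mesoderm and endoderm factors and 14.8% in 16 astrocyte genes, against 20% over all 11323 such genes. By this count astrocyte genes were not the lowest, since the median was 11.8% in 8 oligodendrocyte genes and also 14.8% in 12 neural progenitor genes.

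**Figure D4:**
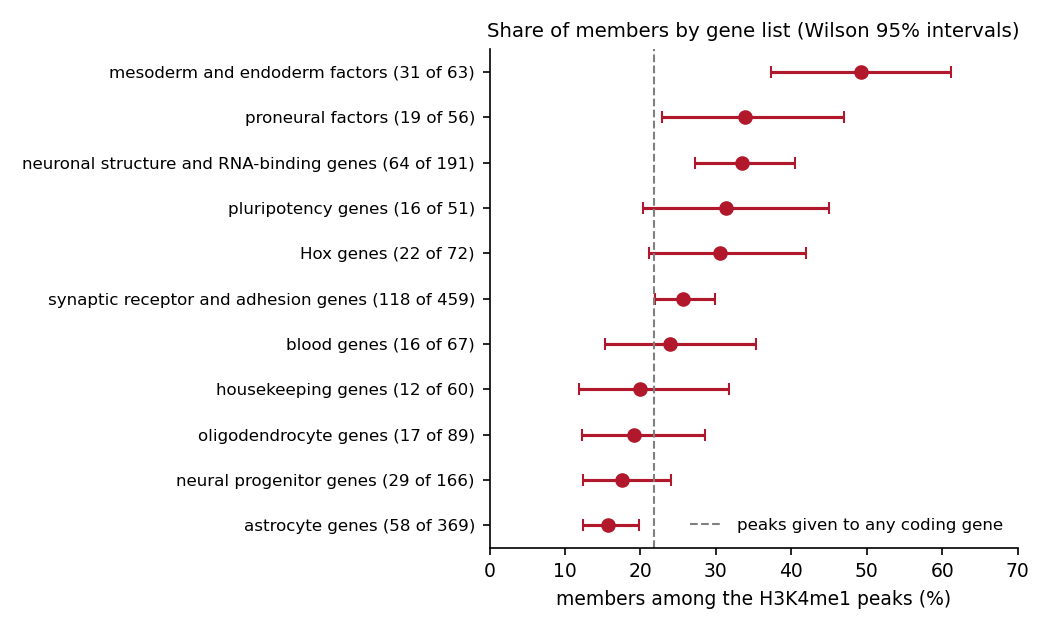
Share of the aNPC H3K4me1 peaks of each gene list that were persistently primed (percent, points with 95% Wilson intervals, with counts beside each name), and the share over peaks given to any coding gene as a dashed line at 21.8%. Mesoderm and endoderm factors are highest at 49.2% and astrocyte genes lowest at 15.7%.

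Primed sites of the lists also differed in their distance from acetylation. That distance draws on the same H3K27ac lists as the rule, and the gene lists differed in how many promoters were acetylated. The values are therefore a description only, and gaps of the other peaks of these genes were not compared. Of all primed sites, 29.2% were 10 kb or more from every H3K27ac peak, 30.7% within 1 kb and 3.95% CpG-rich. Of the 31 sites of mesoderm and endoderm factors, 27 (87.1%) were 10 kb or more from every H3K27ac peak, with a median gap of 33342 bp, and 15 were CpG-rich. Of the 58 sites of astrocyte genes, 1 (1.72%) was that far, 23 were within 1 kb and none was CpG-rich, with a median gap of 2684 bp. None of the 29 sites of neural progenitor genes was that far, and 14 were within 1 kb. Hox genes had 14 CpG-rich sites of 22, proneural factors 8 of 19 and blood genes 7 of 16, whereas synaptic genes had 3 of 118.

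Mesoderm and endoderm factors are grouped by their part in those lineages, and other roles of these genes were not considered. Of the 16, only Eomes had promoter H3K27ac, in aNPC and eA. Hand2, a heart and limb factor, had 6 primed sites among 8 peaks (75%), and Gata6, an endoderm factor, 3 of 4 (75%). Both had a primed site that overlapped a promoter, as did Gata4, T, Mixl1, Nkx2-5 and Tbx20. Here and for the lists below, a promoter site is one that overlaps the promoter window, wherever its centre lies. The share of 4.92% given above counts centres only. The sites of Hand2, Gata6, Mixl1 and Nkx2-5 had their centres in exons. The promoter site of Gata4 was 1080 bp wide, had a −log10 q of 36.6, and lay 65968 bp from H3K27ac. That of Tbx20 (21.8) was 133965 bp from H3K27ac. The lowest shares were those of Eomes and Myod1, with 1 of 6 peaks each (16.7%).

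Proneural factors are the basic helix-loop-helix factors that start neurogenesis and their partners. Neurod2 had the most primed sites, 5 of 12 peaks (41.7%), Neurog1 and Neurog2 had the highest share, 2 of 4 each (50%), and Neurod4 the lowest, 1 of 7 (14.3%). None of the 4 peaks of Neurog2 overlapped H3K27ac at any stage. Primed sites covered promoters of Neurog1 (−log10 q 35.5), Neurog2 (66.8), Neurog3 (28.7), Insm1 (8.31) and Atoh1, which had 2 (14.6 and 44.8) that met the same peak in each later list. By the position rule the Neurog3 site was given to the neighbouring 2010107G23Rik and is not in the count of the list. The Neurog2 site ranked at 98.5 in eA and 98.2 in lA. The site at Insm1 ranked at 10.4 in eA and 21.6 in lA and stood 277 bp from H3K27ac.

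Neuronal structure and RNA-binding genes encode parts of the neuronal cytoskeleton, of synaptic vesicles and of splicing. Celf4 had the most primed sites, 16 of 45 (35.6%), and Nefl, the light neurofilament, the highest share, 3 of 5 (60.0%). Gap43, a growth cone protein, had none among 16 peaks and Elavl2 none among 4. Both neurofilament genes carried wide primed sites at the promoter, of 1736 bp at Nefl (−log10 q 41.0) and of 1815 bp at Nefm (30.8), and these were 39080 and 78995 bp from H3K27ac. Further promoter sites were at Elavl3 (21.2) and Elavl4 (6.79), the latter 77 bp from H3K27ac.

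Synaptic receptor and adhesion genes were led by Nrxn3, with 27 of 55 peaks (49.1%), and by Grin1, the obligatory NMDA receptor subunit, with 3 of 5 (60.0%). The promoter site of Grin1 (−log10 q 35.0) was 12327 bp from H3K27ac. Promoter sites at Nrxn3 (22.8), Gria2 (9.67), a subunit of AMPA receptors, and Kcnq3 (4.59), a potassium channel, were also found, at 46333, 78 and 98 bp from H3K27ac.

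In the astrocyte list, Nfia, which starts gliogenesis, had the most primed sites, 17 of 71 (23.9%), and Slc1a2, the glutamate transporter GLT-1, the highest share, 9 of 28 (32.1%). Gfap (3 peaks), Aqp4 (10) and Sparcl1 (14) had none. Promoter sites were seen at Slc1a2 (−log10 q 6.86), Id3 (19.3) and Clu (15.3), with gaps to H3K27ac of 9080, 408 and 78 bp. Slc1a2 and Clu had H3K27ac at all 3 stages elsewhere in the promoters of their annotated start sites, and Id3 had it there at none.

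Among neural progenitor genes, Notch1 had the most, 7 of 32 (21.9%), with 2 at promoters (14.4 and 15.5), both within 1 kb of H3K27ac. Hes5, a Notch target, had the highest share, 3 of 5 (60.0%). Nes (6 peaks), Pax6 (5) and Prom1 (3) had none. Among oligodendrocyte genes, Mbp, a myelin protein, had the most and the highest share, 6 of 20 (30.0%), with one site at the promoter (23.4), and Olig1 had a promoter site (20.7) at 416 bp from H3K27ac. Cnp (7 peaks), Nkx2-2 (5) and Pdgfra (4) had none.

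Pluripotency genes were uneven. All 3 peaks of Sall4 were primed, 2 of them at promoters (21.6 and 6.78), Lin28a had 3 of 4 with 2 at promoters (8.68 and 16.6), and Fgf4 had its single peak at the promoter (13.8). Esrrb had the most, 7 of 18 (38.9%). Nanog (4 peaks), Klf4 (9) and Tdgf1 (6) had none, and Pou5f1 was given no aNPC H3K4me1 peak.

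Among blood genes, Pax5 had the most and the highest share, 5 of 15 (33.3%), and Ptprc, the leukocyte antigen CD45, the lowest, 1 of 9 (11.1%). Primed sites were at promoters of Tal1 (26.9), Gata2 (22.3), Pax5 (12.2) and Ikzf1, where both peaks were primed (9.78 and 21.9) and about equally far, 79001 and 78076 bp, from H3K27ac. Among Hox genes, Hoxa3 led with 6 of 17 (35.3%) and Hoxa13 had none among 4. Promoter sites were at Hoxa3, Hoxa5, Hoxc5, Hoxc8, Hoxd1, Hoxd11 and Hoxd13, with −log10 q from 5.51 at Hoxc8 to 35.8 at Hoxd1. Neighbouring Hox genes lie close together, so a site near several of them could belong to another.

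Housekeeping genes had narrow promoter sites at Tbp (185 bp) and Ywhaz (190 bp), 62 and 299 bp from H3K27ac. Ywhaz had the most, 4 of 12 (33.3%), Ppia the highest share, 2 of 4 (50%), and Eef1a1 the lowest, 1 of 15 (6.67%). Their promoters were acetylated at all 3 stages.

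Over all genes, the most primed sites went to Gm20388 (64 of 279) and Fgfr2 (36 of 114), whose models in the annotation span 4435 and 3009 kb and can take in peaks of other genes. Macrod2 (33 of 87), Ntm (33 of 101), Opcml (30 of 131), Dab1 (27 of 121), Kalrn (27 of 67), Nckap5 (27 of 120), Nrxn3 (27 of 55) and Pde4d (27 of 104) followed. Ntm, Opcml and Nrxn3 encode adhesion molecules of neurons, and Dab1 carries the reelin signal.

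Among the 1146 genes with 20 or more peaks, the median share was 20% (quartiles 14.3 and 26.3). The 10 highest were Zfp536 (60.0%, 15 of 25), Rbfox3 (52.2%, 12 of 23), Grik3 (51.6%, 16 of 31), Shank2 (51.4%, 19 of 37), Cadps, Grid1, Grin2a and Zmat4 (50% each), Nrxn3 (49.1%) and Pebp4 (48.1%, 13 of 27). Of these, Grik3, Grid1 and Grin2a are subunits of the glutamate receptor family, Shank2 is a scaffold of the postsynaptic density and Cadps acts in vesicle release. The 10 lowest were Adamtsl1, Polr3b, Ccdc88c, Erc1, Mical3 and Myo6, without any primed site among 23 to 29 peaks, and Pld1, A130050O07Rik, Zfp462 and Cdk5rap2, with 1 each. Except for Mical3, with promoter H3K27ac at 1 stage, these had it at 3 stages. Grid1 also had it at 3 stages, Shank2, Cadps and Grin2a at 2 and Grik3 at 1, while Zfp536, Rbfox3, Zmat4, Nrxn3 and Pebp4 had it at none.

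Letters of 13 transcription factor motifs were searched on both strands in 200 bp around the summits. Sets are called separated where their intervals did not overlap, which is a description and not a test. Many motifs, deciles and sets were compared without correction, and the intervals cover counting error over peaks only. The largest ratio of the 13 between primed and constitutively acetylated sites was that of RFX (GTTGCCATG), found at 0.922% (0.824–1.03) of primed and 0.286% (0.232–0.352) of constitutively acetylated sites, a ratio of 3.22. It stood at 0.672% (0.572–0.789) of later acetylated, 0.746% (0.619–0.898) of lost sites and 0.606% of all aNPC H3K4me1 peaks. RFX factors regulate genes of cilia. At matched H3K4me1 strength, looked at in deciles 1, 6 and 10 of the list, the shares in the strongest decile were 1.24% (0.711–2.15) for primed and 0.292% (0.202–0.422) for constitutively acetylated sites, and in decile 6 they were 0.937% (0.683–1.28) and 0.309% (0.150–0.636). In decile 1 these sets overlapped, at 0.557% (0.361–0.859) and 0 of 215 sites (0–1.76). Primed and later acetylated sites overlapped in all 3 deciles, with later acetylated sites at 0.661% (0.359–1.21) in the strongest, 0.982% (0.680–1.42) in decile 6 and 0.432% (0.209–0.889) in decile 1.

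The POU octamer (ATGCNAAT), LIM homeobox (TAATTA) and SOX (CCATTGT) letters followed the same order. They were found at 3.53% (3.34–3.74), 4.27% (4.06–4.49) and 4.11% (3.90–4.33) of primed sites, and at 2.23% (2.08–2.41), 3.01% (2.82–3.20) and 2.97% (2.79–3.16) of constitutively acetylated sites. Later acetylated sites were in between, at 2.74% (2.53–2.97), 3.42% (3.19–3.67) and 3.63% (3.39–3.88). In all aNPC H3K4me1 peaks the shares were 3.07%, 3.81% and 3.77%. Lost sites had shares like those of the primed sites or higher, at 3.68% (3.39–4.0), 4.15% (3.84–4.48) and 4.50% (4.18–4.85). In the strongest decile, primed and constitutively acetylated sites were not separated by any of the 3, and the POU octamer stood the other way round, at 1.55% (0.941–2.54) of primed and 2.27% (1.99–2.58) of constitutively acetylated sites. There LIM letters were at 2.38% (1.59–3.54) and 1.82% (1.57–2.10), and SOX letters at 3.10% (2.18–4.39) and 2.74% (2.43–3.08). In decile 1 the POU octamer was at 3.12% (2.60–3.74) and 0.465% (0.0822–2.59), and SOX letters at 4.10% (3.50–4.79) and 0.465% (0.0822–2.59). Intervals did not overlap for these, but each 0.465% was 1 of 215 sites. LIM letters overlapped there, at 4.29% (3.68–5.00) and 3.26% (1.59–6.57). In decile 6 primed sites were separated from constitutively acetylated sites for the POU octamer (3.89%, 3.34–4.53, and 2.34%, 1.79–3.05) and SOX (4.41%, 3.82–5.09, and 2.87%, 2.26–3.64) but not for LIM (4.54%, 3.94–5.22, and 3.26%, 2.61–4.08). Later acetylated sites of decile 6 were at 3.33% (2.73–4.05), 4.35% (3.66–5.16) and 4.42% (3.72–5.24) in that order, and in none of deciles 1, 6 and 10 were primed and later acetylated sites separated by any of the 3. All 3 were found more often far from acetylation. At primed sites 50 kb or more from H3K27ac and at those within 1 kb, the POU octamer was at 5.28% (4.35–6.40) and 3.17% (2.85–3.53), LIM letters at 5.23% (4.30–6.34) and 3.74% (3.39–4.13) and SOX letters at 5.12% (4.2–6.22) and 3.43% (3.09–3.8).

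For the letters of 3 motifs, the share in 200 bp was lower at primed than at later acetylated sites with intervals that did not overlap. The AP-1 letters (TGANTCA), bound by the AP-1 family and ATF3, were found at 7.49% (7.21–7.78) of primed, 9.87% (9.48–10.3) of later acetylated and 6.91% (6.63–7.20) of constitutively acetylated sites. STAT letters (TTCCNGGAA), of the factors downstream of LIF, were found at 0.747% (0.660–0.845), 1.17% (1.04–1.32) and 0.861% (0.764–0.970). TEAD letters (GGAATGT) were found at 3.72% (3.52–3.93), 4.82% (4.54–5.11) and 3.44% (3.24–3.65). In all aNPC H3K4me1 peaks these were at 7.24%, 0.768% and 3.41%. In the strongest decile the intervals of primed and later acetylated sites overlapped for AP-1 (3.20%, 2.27–4.51, and 4.56%, 3.62–5.73), TEAD (2.07%, 1.34–3.17, and 3.17%, 2.40–4.18) and STAT (0.620%, 0.284–1.35, and 1.12%, 0.702–1.79). In decile 1 they overlapped as well, for AP-1 at 9.58% (8.66–10.6) and 11.3% (9.85–12.9), for TEAD at 4.46% (3.83–5.18) and 5.68% (4.65–6.91) and for STAT at 0.836% (0.586–1.19) and 1.30% (0.849–1.97). In decile 6 AP-1 and TEAD were separated, at 7.52% (6.75–8.37) and 9.68% (8.65–10.8) and at 3.62% (3.09–4.24) and 5.36% (4.60–6.25), and STAT was not, at 0.567% (0.378–0.849) and 0.982% (0.680–1.42).

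The NF1 half-site (TGCCAAG), of the family of Nfia, Nfib and Nfix, was at 8.18% (7.89–8.48) of primed and 8.20% (7.85–8.57) of later acetylated sites in 200 bp windows. In 500 bp windows it was less frequent at primed sites, at 16.4% (16.0–16.8) and 17.4% (16.9–17.9). In 200 bp both were above constitutively acetylated sites (6.07%, 5.81–6.34) and all peaks (7.41%). Within deciles 1, 6 and 10 primed and constitutively acetylated sites overlapped, at 7.47% (6.65–8.37) and 4.19% (2.22–7.76), 8.06% (7.26–8.94) and 6.62% (5.67–7.72), and 7.13% (5.67–8.92) and 5.94% (5.48–6.43). RUNX letters (AACCACA) were at 4.41% (4.19–4.63) of primed, 4.63% (4.36–4.92) of later acetylated and 3.94% (3.73–4.16) of constitutively acetylated sites, and at 4.26% of all peaks. In decile 6 RUNX letters were less frequent at primed (3.57%, 3.05–4.19) than at later acetylated sites (5.12%, 4.37–5.99). The E-box CAGATG (NEUROD) was at 18.9% (18.5–19.3) of primed sites and 18.6% of all peaks. It was less frequent at constitutively acetylated (16.2%, 15.8–16.7) and later acetylated sites (17.1%, 16.6–17.6) and more frequent at lost sites (21.8%, 21.1–22.5). Within deciles, primed sites were separated from constitutively acetylated sites in decile 6 (19.2%, 18.0–20.4, and 14.4%, 13.0–15.9) and from later acetylated sites in decile 1 (18.1%, 16.9–19.4, and 15%, 13.3–16.8), and in the strongest decile they stood at 15.2% (13.1–17.6), with 17.0% (16.3–17.8) and 15.2% (13.5–17.1) in the other two. For the letters of GATA factors (AGATAAG), the CTCF core (CCACNAGGG) and the REST half-site (TCAGCACC), the intervals of primed, later acetylated and constitutively acetylated sites overlapped, with 2.16%, 0.840% and 1.19% of primed sites and 2.14%, 0.803% and 1.17% of all peaks. Except for the REST, CTCF and STAT letters, the last with overlapping intervals (0.610%, 0.309–1.20, and 0.753%, 0.664–0.854), CpG-rich primed sites held the letters searched less often than the other primed sites, for instance AP-1 at 1.14% (0.694–1.88) and the POU octamer at 0.381% (0.163–0.889), and the part of base composition in the differences between sets was not tested.

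**Figure D5:**
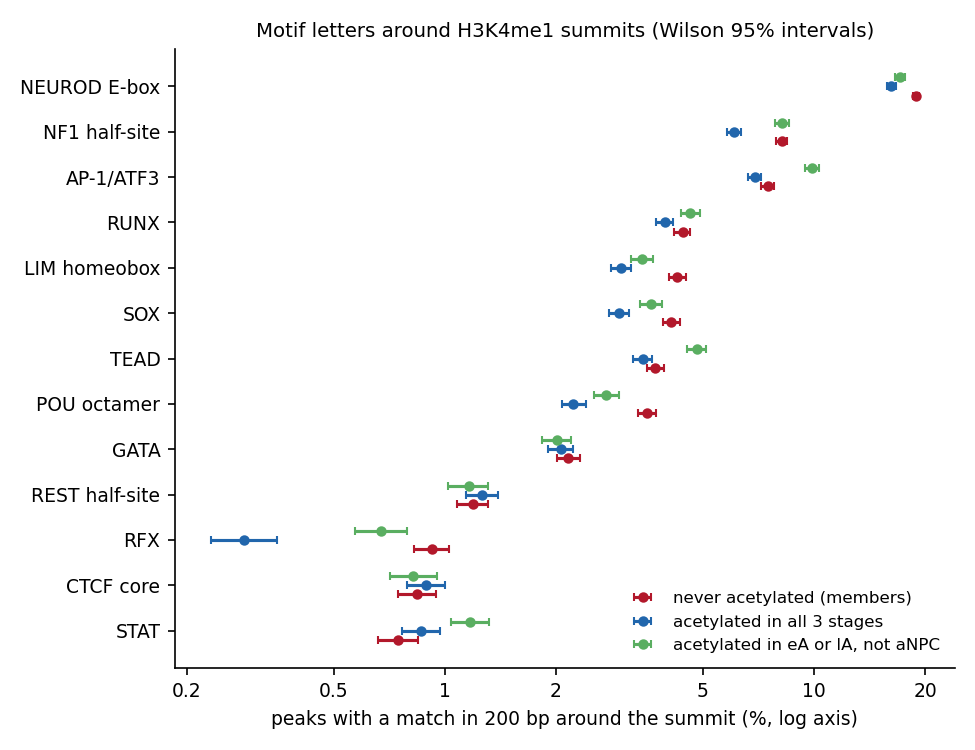
Share of sites with a match to each set of motif letters in 200 bp around the aNPC H3K4me1 summit (percent on a log axis, 95% Wilson intervals), for primed, constitutively acetylated and later acetylated sites. RFX shows the widest gap between primed (0.922%) and constitutively acetylated sites (0.286%).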

How the data were processed

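The 6 deposited peak lists, of H3K4me1 and H3K27ac in aNPC, eA and lA, were used. The authors aligned reads uniquely to mm9 with Bowtie, merged the 2 replicates with SAMtools 0.1.19 and called peaks with MACS2 at default settings without an input control. The deposited fold is the ratio of reads at the summit to the local background, and the deposited −log10 values are those of the q-value. Both were used within 1 list only, since the read depth of the lists is not given in the sources used here.

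Overlaps of 1 bp or more, gaps, widths and ranks were computed in Python 3.11.15 with pandas 2.3.3, numpy 2.4.6 and scipy 1.17.1, and sequences were read with pysam 0.24.0 from NCBIM37, the same build as mm9. Genes were those of GENCODE M1 (22238 coding genes, 46028 start sites). Interval and motif functions were tested on simulated data. Shares carry 95% Wilson intervals, which cover counting error over peaks only, and no test was run, since no replicates were available and peaks are not replicates. The sites and the gene and motif lists were chosen with earlier results of these data known. Named genes are those with the most sites and the highest and lowest share in each list (of genes with 3 or more peaks), list genes with a site at the promoter, the 10 with the most sites, the 10 highest and 10 lowest shares among genes with 20 or more peaks, and the 10 strongest and 5 widest sites. The windows printed are those of the site of highest −log10 q (Crh) and of the strongest site of single gene lists. CpG-rich was defined after the data were seen. RNA-seq, knockdown and neuronal samples were not analysed here. Some genes and 1 motif that the rules name are not reported here.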

Additional observations from a re-analysis of the deposited data

Results flagged for a closer look

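Chromosomes X and Y lie outside the rule. On X, 737 of 3674 aNPC H3K4me1 peaks met the rest of it (20.1%, 95% Wilson interval 18.8–21.4), a signal on a chromosome outside the comparisons of the report. On Y none of 37 peaks did, with an upper bound of 9.41%. Of the autosomes, chromosome 18 had the lowest share, 21.1% (20–22.2), and chromosome 16 the highest, 23.0% (21.9–24.2).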

How the results depend on the processing

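The count of 33201 primed sites stayed within 1.5 times under all 6 alternatives tried on it. With −log10 q of 5 or more in all 6 lists there were 25934 sites, of which 20593 were among those reported, and the share of the list was 21.5%, that at promoters 5.52% and that over 10 kb from H3K27ac 34.6%. With this minimum in the H3K27ac lists alone there were 40220 sites, with 26.7%, 4.67% and 34.4%. With no H3K27ac within 1 kb there were 22992, with 15.3%, 3.72% and 42.2%, the last of which follows from leaving out the near sites. With the aNPC summit inside an eA and an lA peak there were 27853, with 18.5% and 5.19%, and with 50% of the peak covered 27210, with 18.1% and 5.27%, while the share over 10 kb stayed within its interval under both. With X and Y there were 33938 sites and no share left its interval. A promoter window of 1 kb on both sides gave 7.90%. For the moves other than the one named, the cause was not tested.

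Mesoderm and endoderm factors had the highest share of the 11 gene lists with the −log10 q minimum in all lists (58.5%) and without H3K27ac within 1 kb (47.6%). Astrocyte genes, lowest as reported, were at 16.4% and 9.49%, and neural progenitor genes were then lowest, at 16.2% and 9.04%. The base over all peaks given to a gene was 21.2% and 14.6% under these settings. With the −log10 q minimum, blood genes were at 34.0% (22.7–47.4) and synaptic genes at 26.9% (22.5–31.8). Without H3K27ac within 1 kb, pluripotency genes were at 31.4% (20.3–45.0), Hox genes at 25% (16.4–36.1), synaptic genes at 19.8% (16.4–23.7), oligodendrocyte genes at 11.2% and housekeeping genes at 10.0%. These intervals also treat peaks of 1 gene as independent. In 500 bp windows the ratio of RFX letters at primed to constitutively acetylated sites was 2.22 in place of 3.22, that to later acetylated sites 1.14 in place of 1.37 with overlapping intervals (1.78–2.07 and 1.51–1.85), and that of STAT letters to later acetylated sites 0.673 in place of 0.638. The CpG-rich share, under settings chosen after seeing the data, was 4.23% in 200 bp windows and 4.82% without sites within 1 kb of H3K27ac.

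No paired analysis was possible because the replicates were merged before peaks were called, and leaving out a replicate was not run for the same reason. The depth of the lists is unknown, and an H3K27ac peak too weak to be called leaves a site counted as never acetylated.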

Other observations

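Along the chromosome, the next aNPC H3K4me1 peak was itself primed for 27.9% of primed sites and for 20.4% of the other peaks, a description with no test. Of the 33201, 17403 (52.4%) had no other primed site as a direct neighbour among the aNPC H3K4me1 peaks, and 1097 lay in 202 runs of 5 or more consecutive primed peaks. The longest runs, chosen after their lengths were seen, held 9 sites each. They lay at chr7:140369693-140480230, with no coding gene given, at chr9:52176850-52338550, likewise, at chr15:11731870-11924814 by Npr3 and Sub1, and at chr16:23953397-24050603 by Bcl6, a transcriptional repressor, and Rtp2. A run of 7 sites lay by Dmrt2 and Dmrt3 on chromosome 19 and one of 8 by Dock2 on chromosome 11.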
